A study of Mus musculus with 4 samples.

Results

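Collagen genes and the genes of enzymes and folding factors that act on collagen were examined in RNA from perivascular adipose tissue (PVAT) of the mouse femoral artery. A gene was included when its whole symbol was Col, a number, a and a number (such as *Col1a1*) or stood in a list of 16 symbols, from *Lox* to *Crtap*. These criteria found 39 of the 12661 genes of the deposited table, of which 24 were collagen chains and 15 were enzymes or folding factors. *Leprel1* was the listed symbol not analysed here. All mice were ovariectomized wild type females of strain C57BL/6 (C57BL/6J in the methods), 11 weeks old. In the injury group (n = 2 libraries) a spring wire 0.38 mm in diameter had been passed into the artery, and the sham group (n = 2 libraries) had a sham operation. The tissue around the artery was taken 48 h later. It consists mainly of fat, but may hold nerve, microvessels and pieces of vessel wall or muscle. The labels do not say whether each library came from a separate mouse, so p-values measure the spread between these libraries only.

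The deposited values are signed decimals on a scale that behaves as a logarithm. Its base and the reference that stands at 0 are not given in the sources used here. A value is therefore not read as the abundance of a transcript, and genes are compared by their difference (injury minus sham). For some pairs of chains the gap between their values is also given in each library, and only its change between libraries is read. No fold change is computed, and each difference is in deposited units. Sequencing depth is unknown, so no counting interval or detection limit can be given. Over all genes the median difference was 0.008, and the median of each library lay within 0.0062 of 0. Sham and injury libraries lay apart on the first axis of a principal component analysis (77.7% of the variance).

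Collagens are extracellular proteins in which chains with glycine at regular intervals wind into a helix. The chains are hydroxylated on proline and lysine and folded in the endoplasmic reticulum, secreted, trimmed at their ends, assembled and finally cross-linked by lysyl oxidases. Fibrillar collagens carry tension, collagen IV forms the sheet of basement membranes, and collagen VI forms beaded filaments around cells, adipocytes among them. In adipose tissue and in the outer coat of arteries most collagen is made by fibroblasts and adipocyte progenitors, and basement membrane collagen also by endothelial, mural, Schwann and fat cells.

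Of the 24 collagen chains 5 fell after injury and none rose, and none of the 15 enzymes and folding factors was called in either direction by limma. With limma and Benjamini-Hochberg adjustment over all 12661 genes at a threshold of 0.05, 5 of the 39 genes were called lower (12.8%), against 3.67% of all genes. The 5 were *Col4a5*, *Col5a2*, *Col3a1*, *Col4a1* and *Col1a1*, all collagen chains. None of the 39 was called higher by limma, against 3.76% of all genes. Without adjustment, 15 of the 39 had p under 0.05 with lower values and 2 with higher values, where 14.8% of all genes did so in each direction. At an adjusted threshold of 0.1 limma called 11 members lower and 0 higher, against 9.09% and 9.21% of all genes. The mean was lower after injury in 32 of the 39, against 49.1% of all genes. Both injury libraries lay below both sham libraries in 22 of the 39 genes (56.4%), against 30.3% of all genes, and above them in 3, against 31.6%. In the other 14 genes the groups overlapped. The median difference was -0.60 over the 24 chains and -0.17 over the 15 enzymes and folding factors. These calls lie close to the threshold, and with 2 libraries a group permuting the labels of a gene (exact test) gives no p below 0.333. Without sham replicate 1, sham replicate 2 or injury replicate 1 no member was called by limma, and over all genes 0, 1 and 284 were called in these fits, in which the lone library of a group is assumed to vary like the other group. Without injury replicate 2 the count was 7 members lower, of which 3 were among the 5 (*Col3a1*, *Col4a1* and *Col4a5*), and 1790 genes were called in all, where the fit to the 4 libraries called 941 (7.43%). The 5 called genes kept their sign in each of these 4 fits, which was fixed in advance because their groups did not overlap.

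**Figure D1:**
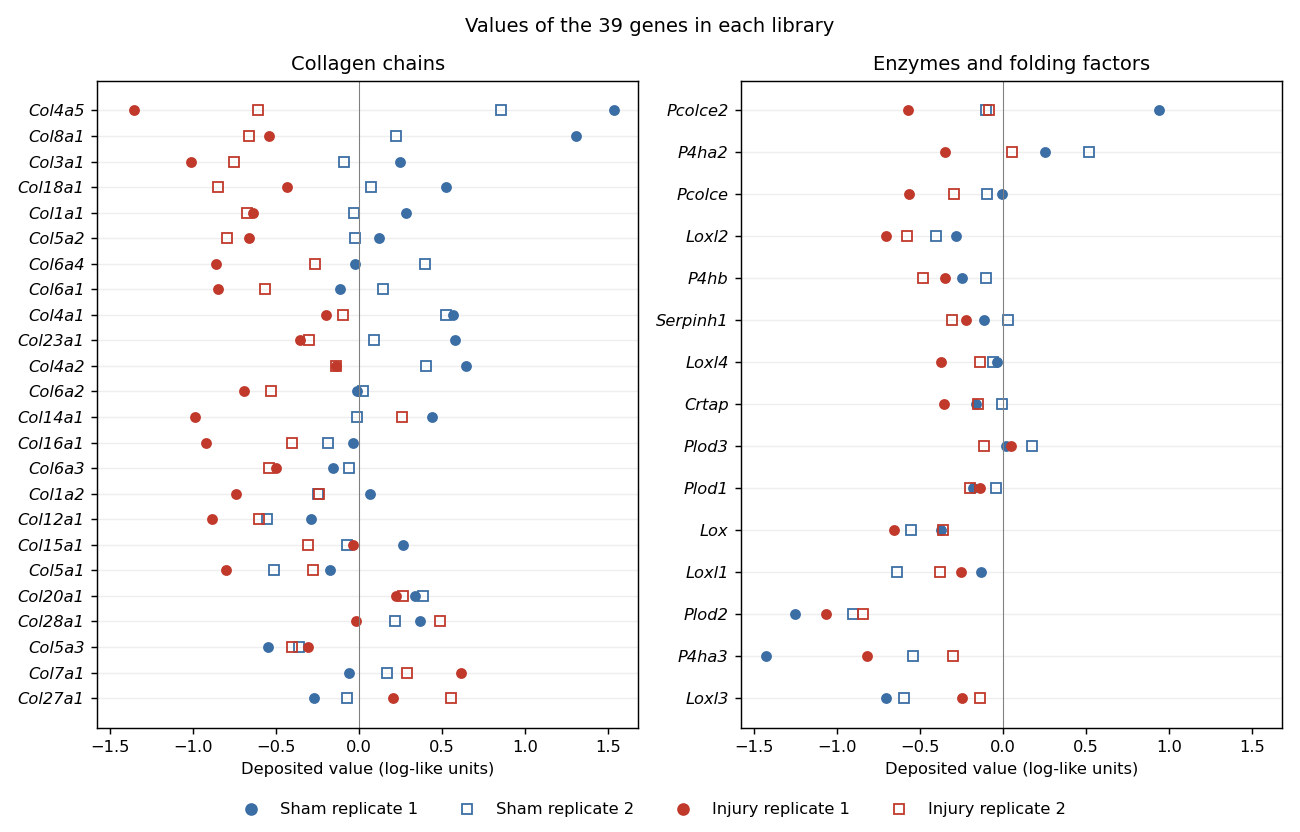
Deposited value (x axis, log-like units) of each of the 39 genes (y axis) in the 2 sham libraries (blue) and the 2 injury libraries (red), with replicate 1 filled and replicate 2 open. Collagen chains (left) and enzymes with folding factors (right) run from the lowest difference at the top to the highest at the bottom. In 16 of the 24 chains both injury points lie left of both sham points, as in 30.3% of all genes.

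**Figure D2:**
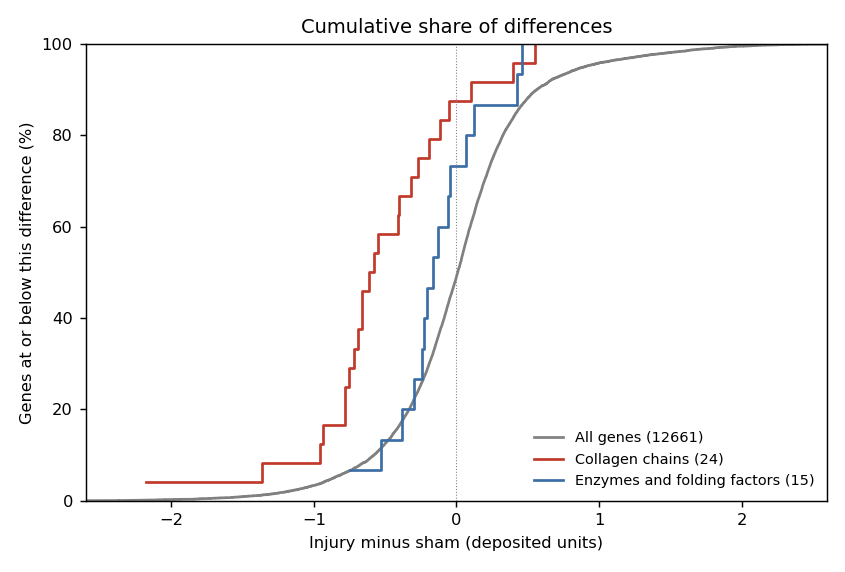
Cumulative share of genes (y axis, percent) by difference between injury and sham (x axis, deposited units) for all 12661 genes, the 24 collagen chains and the 15 enzymes and folding factors. The curve of the chains lies left of that of all genes, with medians of -0.60 and 0.008, and the curve of the enzymes runs closer to all genes, with a median of -0.17. The x axis stops short of the most extreme genes.

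Promoter sequences are shown for the 3 members with the lowest differences among those for which the 250 bases before the annotated start overlap no annotated gene. They are *Col8a1*, which encodes a short chain of vessel walls, *Col3a1*, the chain of collagen III, and *Col18a1*, whose product is the source of endostatin. The sequences are from RefSeq on build GRCm38.p6, read from 5′ to 3′ on the strand of the gene. The window of *Col8a1* is chr16:57754738-57754987 on the minus strand, that of *Col3a1* is chr1:45311288-45311537 on the plus strand, and that of *Col18a1* is chr10:77166531-77166780 on the minus strand. Capitals mark matches on either strand to TATAAA, which marks some start sites, to CCAAT, which binds NF-Y, to GGGCGG, the GC box, to TGANTCA, the AP-1 motif, or to CAGAC, which binds SMAD proteins. None of these motifs contains another. *Col18a1* has a second annotated start, whose window (chr10:77113706-77113955) overlaps 1 annotated gene, held CAGAC but neither GGGCGG nor CCAAT, and is not printed.
Col8a1: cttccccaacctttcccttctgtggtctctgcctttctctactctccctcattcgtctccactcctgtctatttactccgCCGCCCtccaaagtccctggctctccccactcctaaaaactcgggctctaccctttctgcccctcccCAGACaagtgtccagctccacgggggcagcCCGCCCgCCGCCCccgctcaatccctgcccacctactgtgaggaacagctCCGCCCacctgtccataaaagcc
Col3a1: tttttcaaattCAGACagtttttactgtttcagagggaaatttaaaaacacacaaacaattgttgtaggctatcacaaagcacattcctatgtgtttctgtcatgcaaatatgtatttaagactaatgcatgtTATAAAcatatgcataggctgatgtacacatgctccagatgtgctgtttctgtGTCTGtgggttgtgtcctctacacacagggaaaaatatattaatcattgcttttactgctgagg
Col18a1: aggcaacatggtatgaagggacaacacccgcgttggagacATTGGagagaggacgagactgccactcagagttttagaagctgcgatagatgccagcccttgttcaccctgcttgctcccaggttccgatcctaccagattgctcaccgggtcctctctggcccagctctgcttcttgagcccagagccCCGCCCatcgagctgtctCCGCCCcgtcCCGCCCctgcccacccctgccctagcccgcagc
Over the 39 members, 30 genes with 32 windows were found in the promoter table. The letters of the GC box were in 22 of the 32 windows (68.8%) and in 32.7% of all 32851 windows. The median GC content of the 250 bases was 61.0% in the member windows and 52.4% in all windows. *Col3a1*, at 35.2%, had the lowest GC content of these windows and had no GC box, whereas its window held TATAAA, as did 3 of the 32 member windows (9.38%) and 12.4% of all windows. CCAAT was found in 11 member windows (34.4%, against 33.8% of all), CAGAC in 15 (46.9%, against 42.2%) and TGANTCA in 1 (3.12%, against 6.75%), that of *Col6a1*. A match is a run of letters and does not show a bound factor.

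Of the 7 fibrillar chains analysed, *Col3a1*, *Col1a1* and *Col5a2* were called lower by limma, against 3.67% of all genes. *Col3a1*, the chain of collagen III and on mm9 located at chr1:45368383-45406551, measured 0.24 and -0.090 after sham operation, against -1.01 and -0.75 after injury. The groups did not overlap, and the difference was -0.96 (standard error of the difference 0.18, limma adjusted p = 0.0440). *Col1a1*, the major chain of collagen I on chromosome 11 from 94797538 to 94814356, measured 0.28 and -0.030 after sham operation, against -0.64 and -0.67 after injury. The injury libraries were nearly alike and both were low, with a difference of -0.78 (SE 0.16, limma adjusted p = 0.0498). A variance prior robust to outlying genes took it just past the threshold (limma adjusted p = 0.0514). *Col5a2*, a chain of collagen V, which starts the assembly of collagen I fibrils, lies on chromosome 1 from 45431166 to 45560127. It was at 0.12 and -0.022 after sham operation and at -0.66 and -0.79 after injury. Its groups lay clearly apart, with a difference of -0.78 (SE 0.14, limma adjusted p = 0.0407), and its call was lost after quantile normalization of the 4 columns (limma adjusted p = 0.0529).

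The partner chains of these collagens were not called. *Col1a2* joins *Col1a1* in collagen I and was at 0.068 and -0.24 in the sham libraries and at -0.74 and -0.24 in the injury libraries. Injury replicate 2 thus stood level with the lower sham library, and the difference of -0.40 (SE 0.22) was smaller than the gap between the injury libraries and was not called (limma adjusted p = 0.289). Within a library the value of *Col1a1* minus that of *Col1a2* was 0.21 and 0.21 after sham operation and 0.10 and -0.43 after injury. *Col5a1*, the partner of *Col5a2*, overlapped between the groups, with a difference of -0.19 (limma adjusted p = 0.617) that ran from -0.45 to 0.067 with 1 library left out. *Col5a3*, a further chain of collagen V, had a difference of 0.10 (limma adjusted p = 0.683). *Col27a1*, a fibrillar chain best known from cartilage, was the member with the highest difference. Its values were -0.27 and -0.075 after sham operation and 0.20 and 0.55 after injury. Both injury libraries were above both sham libraries, but the difference of 0.55 (SE 0.18) missed the threshold (limma adjusted p = 0.115). None of the 7 was called higher by limma, against 3.76% of all genes. Only *Col27a1* had an unadjusted p-value under 0.05 with a higher value, against 14.8% of all genes.

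All 3 collagen IV chains had both injury values under both sham values, as had 30.3% of all genes. Of the 3, 2 were called lower by limma, against 3.67% of all genes. *Col4a5* encodes a chain known from kidney and smooth muscle basement membranes, mutations of which cause Alport syndrome, and lies on chromosome X from 137909928 to 138123778. It was at 1.53 and 0.86 in the sham libraries and at -1.36 and -0.61 in the injury libraries. This was the lowest difference of the 39 genes, -2.18 (SE 0.33, limma adjusted p = 0.0308), and only 0.15% of all genes were at or below it. *Col4a5* stayed called under the alternatives fitted to all 4 libraries, with adjusted p-values from 0.0221 to 0.0434 from limma, and not without sham replicate 1, sham replicate 2 or injury replicate 1. *Col4a1* and *Col4a2* encode the chains of the collagen IV found in nearly every basement membrane. *Col4a1* (chr8:11198423-11312826) was at 0.56 and 0.52 after sham operation and at -0.20 and -0.10 after injury, a difference of -0.69 (SE 0.13, limma adjusted p = 0.0455). *Col4a2* (chr8:11312805-11449287) was at 0.64 and 0.40 and then at -0.14 in both injury libraries, a difference of -0.66 (SE 0.15) that missed the threshold (limma adjusted p = 0.0573). It passed after quantile normalization (adjusted p = 0.0483) and with the columns scaled to one spread (adjusted p = 0.0471, both from limma). Within a library the value of *Col4a5* minus that of *Col4a1* was 0.97 and 0.34 after sham operation and -1.16 and -0.51 after injury, a shift that was not tested.

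**Figure D3:**
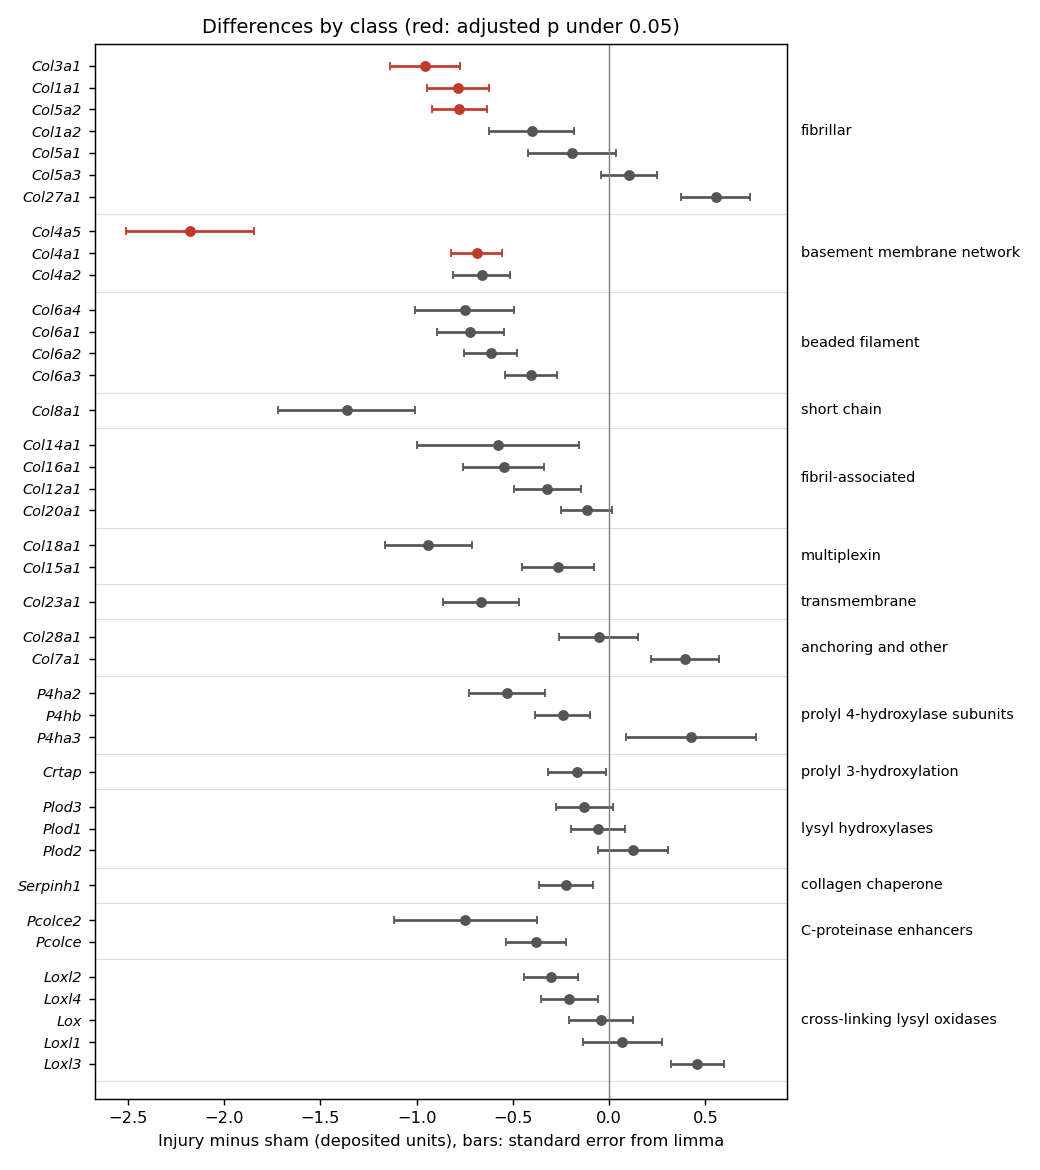
Difference between injury and sham (x axis, deposited units) with its standard error from limma (bars) for the 39 genes, grouped by the structure of the collagen or the step of the enzyme. Red marks an adjusted p-value under 0.05. The 5 red points are *Col3a1*, *Col1a1* and *Col5a2* among the fibrillar chains and *Col4a5* and *Col4a1* among the basement membrane chains, and no enzyme is red.

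In the 4 collagen VI chains both injury libraries lay below both sham libraries, as they did in 30.3% of all genes. None of the 4 was called, where 3.67% of all genes were called lower by limma. *Col6a1* and *Col6a2*, which form the filament together with *Col6a3*, had differences of -0.72 and -0.62 (limma adjusted p = 0.0660 and 0.0581). *Col6a2* was at -0.012 and 0.023 after sham operation and at -0.69 and -0.53 after injury. Both genes passed the threshold after quantile normalization (limma adjusted p = 0.0395 and 0.0407). *Col6a3*, the largest chain of this collagen, had the highest difference of the 4, -0.41 (limma adjusted p = 0.120), and *Col6a4*, an alternative chain, the lowest, -0.75 (limma adjusted p = 0.128). The values of *Col6a4* were -0.025 and 0.40 in the sham libraries and -0.86 and -0.27 in the injury libraries. Its injury libraries thus differed by more than the distance between the higher of them and the lower sham library.

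Several members are neighbours in the genome. Within 200 kb of each other on mm9, with the GENCODE annotation, lay 3 pairs of members, and no other gene of the table lay between the members of any pair. *Col4a1* and *Col4a2* are transcribed away from each other and their annotated ends overlap by 22 bases, so that reads of this short stretch cannot be assigned unless strand was used in counting, which is not given in the sources used here. *Col3a1* and *Col5a2* point towards each other, 24.6 kb apart, and differed by -0.96 and -0.78. *Col6a2* and *Col6a1* lie in the same direction, 85.2 kb apart, and differed by -0.62 and -0.72. The value of *Col4a1* minus that of *Col4a2* ran from -0.078 to 0.12 over the 4 libraries.

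Among the other collagens *Col8a1* had the lowest difference. The product of this short-chain collagen gene, which lies on chromosome 16 from 57624371 to 57754850, forms networks in vessel walls and is made by smooth muscle and endothelial cells. It was at 1.30 and 0.22 in the sham libraries and at -0.54 and -0.66 in the injury libraries. The sham libraries lay far apart, and the difference of -1.36 (SE 0.35) missed the threshold (limma adjusted p = 0.0750). Without sham replicate 1 it was -0.82, and without sham replicate 2 it was -1.90. *Col18a1*, a basement membrane collagen with heparan sulphate chains, was at 0.52 and 0.072 and then at -0.43 and -0.85, a difference of -0.94 (SE 0.23, limma adjusted p = 0.0661). *Col15a1*, its relative of the outer face of basement membranes, overlapped between the groups, with a difference of -0.27 (limma adjusted p = 0.393). *Col23a1*, a transmembrane collagen, had a difference of -0.66 with groups that did not overlap (limma adjusted p = 0.0979).

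The fibril-associated collagens, which sit on the surface of fibrils, were lower on average in all 4 genes analysed, none of them called. Of all genes, 49.1% were lower on average. *Col14a1* measured 0.44 and -0.014 after sham operation, against -0.99 and 0.26 after injury, so injury replicate 1 lay below both sham libraries and injury replicate 2 between them. Its difference was -0.58 (limma adjusted p = 0.413), but 0.043 without injury replicate 1. *Col16a1* and *Col12a1* did not overlap between the groups, with differences of -0.55 and -0.32 (limma adjusted p = 0.155 and 0.285). *Col20a1*, also without overlap, had the smallest difference of the 4, -0.12 (limma adjusted p = 0.596). *Col7a1*, the anchoring fibril collagen of skin, was at -0.058 and 0.17 after sham operation and at 0.61 and 0.29 after injury. Its difference of 0.39 missed the threshold (limma adjusted p = 0.208). *Col28a1*, a collagen known from peripheral nerve, overlapped between the groups (difference -0.055, limma adjusted p = 0.882).

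Of the 15 enzymes and folding factors none was called by limma in either direction, and unadjusted p was under 0.05 for 1 with a lower and 1 with a higher value, where 14.8% of all genes reached this in each direction. In the hydroxylation of proline, *P4ha2*, a catalytic subunit of prolyl 4-hydroxylase, was the one lower gene. Its values were 0.25 and 0.51 in the sham libraries and -0.35 and 0.053 in the injury libraries, a difference of -0.53 (SE 0.20, limma adjusted p = 0.147). *P4hb*, the shared second subunit, differed by -0.24 (limma adjusted p = 0.323). *P4ha3*, another catalytic subunit, had values of -1.43 and -0.54 after sham operation and of -0.82 and -0.30 after injury. Those groups overlapped (difference 0.42, limma adjusted p = 0.451), and the difference was -0.019 without sham replicate 1. *Crtap*, a cofactor of prolyl 3-hydroxylation, differed by -0.17 (limma adjusted p = 0.513).

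The lysyl hydroxylases *Plod1*, *Plod2* and *Plod3*, which prepare lysines for cross-links and sugars, overlapped between the groups. Their differences were -0.058, 0.12 and -0.13 (limma adjusted p = 0.814, 0.690 and 0.602). With 1 library left out *Plod1* ran from -0.13 to 0.014. For *Plod2* the sign turned without sham replicate 1 and after quantile normalization of the 4 columns, with differences of -0.051 and -0.22. *Serpinh1* encodes HSP47, the chaperone that holds newly made collagen, and was at -0.12 and 0.031 after sham operation and at -0.23 and -0.31 after injury. The groups did not overlap, but the difference of -0.23 was not called (limma adjusted p = 0.343). *Pcolce* and *Pcolce2* encode proteins that speed the removal of the carboxyl end of procollagen, and they differed by -0.38 and -0.75 (limma adjusted p = 0.179 and 0.246). *Pcolce2* was at 0.94 in sham replicate 1 and at -0.10 in sham replicate 2, where the injury libraries were at -0.57 and -0.084. Its size was therefore set by a single library, since the difference was -0.23 without sham replicate 1.

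The lysyl oxidases, which cross-link collagen and elastin outside the cell, had differences of both signs and no call by limma. *Loxl3* was at -0.70 and -0.60 in the sham libraries and at -0.25 and -0.14 in the injury libraries. Replicates were close in both groups, and the difference of 0.46 (SE 0.14) was the highest among the 15 but missed the threshold (limma adjusted p = 0.101). *Loxl2*, which also acts on basement membrane collagen, was at -0.28 and -0.41 and then at -0.71 and -0.58, a difference of -0.30 (limma adjusted p = 0.224). *Loxl4* differed by -0.21 without overlap (limma adjusted p = 0.406). *Lox* and *Loxl1*, the family members best known in arteries, overlapped between the groups with differences of -0.043 and 0.068 (limma adjusted p = 0.886 and 0.851). With 1 library left out *Lox* ran from -0.19 to 0.10 and *Loxl1* from -0.18 to 0.32, so neither kept its sign.

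Other genes of collagen metabolism were counted in lists. Of 19 further genes of collagen folding and secretion, 1 was called lower by limma (5.26%, against 3.67% of all genes) and none higher. It was *P3h3*, a protein of the prolyl 3-hydroxylase family, with a difference of -0.82 (adjusted p = 0.0327), and the median of the list was -0.17. None of the 5 proteinases that trim procollagen was called by limma, and unadjusted p was under 0.05 for 1, with a lower value, against 14.8% of all genes. Among 9 genes of collagen breakdown and uptake, *Mmp8*, the collagenase of neutrophils, was called higher by limma, against 3.76% of all genes. None was called lower. Without adjustment, 2 had p under 0.05 with lower values and 2 with higher values, against 14.8% of all genes in each direction. *Mmp8* was at -1.02 and -0.68 after sham operation and at 0.72 and 0.50 after injury (difference 1.46, limma adjusted p = 0.0285). Of 14 proteins that bind fibrils, 2 were called lower, namely the proteoglycans *Dcn* (decorin, difference -0.996, adjusted p = 0.0330) and *Lum* (lumican, difference -1.04, adjusted p = 0.0345, both from limma), which is 14.3% against 3.67% of all genes, and 13 had lower means, as had 49.1% of all genes.

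The partners of collagen IV in basement membranes, laminins, nidogens and the like, had lower means after injury in all 11 genes analysed, as had 49.1% of all genes. Both injury libraries lay below both sham libraries in 11 of 11, against 30.3% of all genes, and 4 were called lower by limma, against 3.67%. The laminin chains *Lamb2* and *Lama4* differed by -1.07 and -0.92 and the linker protein nidogen-1 (*Nid1*) by -0.72 (limma adjusted p = 0.0450, 0.0368 and 0.0435). Of the 7 receptors of collagen analysed, *Ddr1*, a receptor tyrosine kinase that binds collagen, fell by 0.92 (limma adjusted p = 0.0330). *Lair1*, an inhibitory collagen receptor of leukocytes, rose by 1.90 (limma adjusted p = 0.0468), with injury values of 0.93 and -0.22 against sham values of -1.67 and -1.42. Of all genes 3.67% were called lower and 3.76% higher. In 5 of the 7 receptors both injury libraries lay below both sham libraries, and 6 had lower means.

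**Figure D4:**
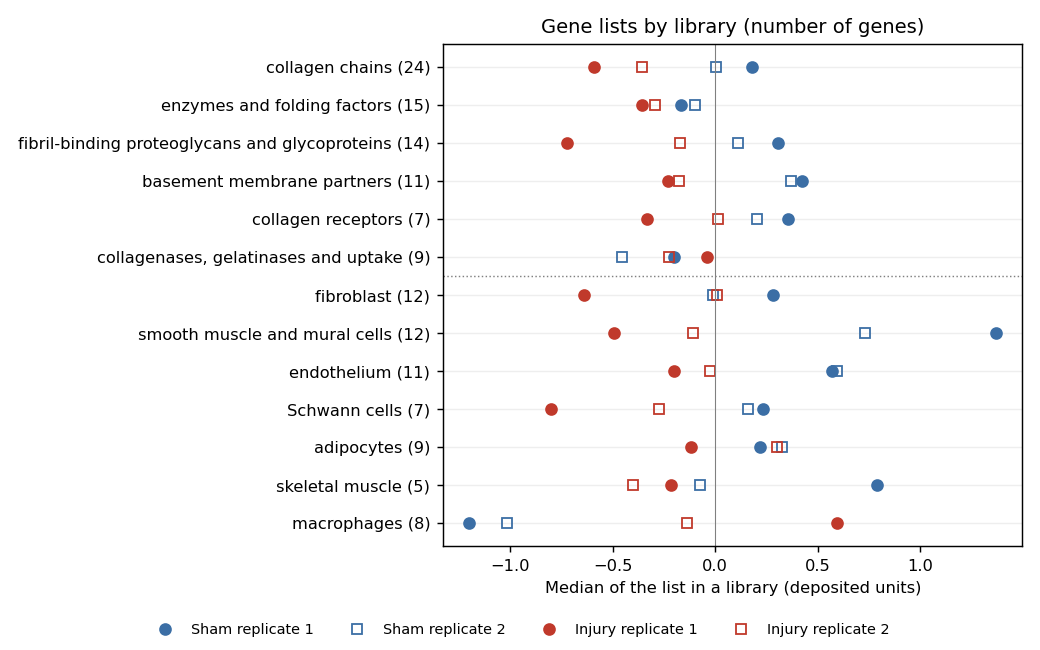
Median deposited value (x axis) of the genes of each list (y axis, number of genes in parentheses) in the 2 sham libraries (blue) and the 2 injury libraries (red), with replicate 1 filled and replicate 2 open. Lists above the dotted line belong to collagen metabolism and those below it are markers of cell types. The smooth muscle and mural list runs from 1.37 and 0.73 after sham operation to -0.50 and -0.11 after injury, and the macrophage list runs the other way.

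Markers of several cell types moved with the collagen genes, and in bulk tissue fewer cells of a type and less RNA per cell cannot be told apart. Of all genes, 3.67% were called lower and 3.76% higher by limma, 49.1% had lower means and 31.6% had both injury libraries above both sham libraries, shares against which the counts of these lists stand. Smooth muscle and mural cell markers were lower on average in 12 of 12 genes and called lower in 5. Their summed values were 13.98 and 8.74 in the sham libraries and -8.44 and -0.31 in the injury libraries. Endothelial markers were lower on average in 11 of 11, with 3 called lower and sums of 6.53 and 6.97 against -2.52 and -1.52. Schwann cell markers were lower in 6 of 7, with 2 called lower and sums of 2.46 and 1.48 against -5.01 and -1.38. Fibroblast markers were lower on average in 11 of 12, with 1 called lower. But the groups overlapped in 8 of the 12, as they did in 4827 of all 12661 genes. The fibroblast sums were 4.18 and -0.89 after sham operation and -6.57 and -0.12 after injury. Macrophage markers were higher in both injury libraries in 8 of 8, with 4 called higher and sums of -9.73 and -8.33 against 4.71 and -0.97. Adipocyte markers had 4 higher and 5 lower means, with 1 called lower and sums of 1.61 and 3.01 against -1.30 and 1.48. The 5 skeletal muscle markers had lower means, with none called by limma and sums of 4.18 and -0.64 against -1.44 and -1.86. Of these 5, 2 had an unadjusted p-value under 0.05 with a lower value, against 14.8% of all genes. Of the cartilage, tendon and bone markers, 1 of 8 was analysed, with no call, and of the epithelial and mesothelial markers none of 8 was analysed here. Since the reference at 0 is not known, the values do not show whether a marker was near absence. The part of these cell types in the lower collagen values was not tested.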

How the data were processed

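RNA of 2 sham and 2 injury samples (480 ng each) was turned into strand-specific poly(A) libraries, read as pairs of 150 bp. Per the submitters' processing notes and the methods, reads were checked with FastQC 0.11.8, trimmed with Cutadapt 1.18 and Trimmomatic 0.39, aligned to mm9 with STAR 2.6.0a and counted with featureCounts, and DESeq2 1.28.0 was run in R 3.6.0. The deposited value of each gene is a signed score on a log-like scale, not a count, and how the authors made it from counts and chose the 12661 genes is not given in the sources used here. Limma 3.58.1 in R 4.3.3 was therefore fitted to all genes and libraries (group as the only term, 2 residual and 3.48 prior degrees of freedom), with Benjamini-Hochberg adjustment over 12661 genes, and was tested on simulated data. No filter on expression was applied. Named genes were all called members, the highest and lowest member of each class, and called genes of the lists (at most 3 a list). The remaining members are described so that all 39 are accounted for. The members and lists were chosen with earlier results of these data known. The symbol *Col4a3bp*, which encodes a ceramide transfer protein, was left out by requiring a match of the whole symbol. Coordinates of the 39 genes are from GENCODE for NCBIM37, the assembly of mm9. Alternatives were a block for the replicate number, a threshold of 0.1, a robust variance prior, quantile normalization, counting identical rows once, scaling the columns to one spread, a minimum difference of 0.5 units and leaving out each library. Python 3.11.15 (numpy 2.4.6, pandas 2.3.3, matplotlib 3.10.9) was used for tables and plots.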

Additional observations from a re-analysis of the deposited data

How the results depend on the processing

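The number of members called lower by limma was 5. It was 2 with the replicate block, where 2.39% of all genes were called lower, 11 at an adjusted p-value threshold of 0.1, and 0 to 7 with 1 library removed. With quantile normalization and with columns scaled to one spread it was 7, with a robust variance prior 4, and with identical rows counted once or a minimum difference of 0.5 units 5. The 2 members called with the replicate block were *Col4a5* and *Col18a1*, and 1 of them was among the 5. The other 4 lost their call with the replicate block, at limma adjusted p-values of 0.0650 (*Col3a1*), 0.0649 (*Col1a1*), 0.0576 (*Col5a2*) and 0.0736 (*Col4a1*). No member was called higher under any of these alternatives. The number of all genes called was 941, against 2317 at a threshold of 0.1 and 0 to 1790 with 1 library removed. The replicate numbers are shared between groups but nothing in the labels makes them pairs, and across genes the gap between the sham libraries correlated with that between the injury libraries at -0.094, so no pairing was assumed.

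Among the 27 members named by the rule, 6 of 270 alternative values turned sign, none of them past the threshold. A replicate block, a robust variance prior, counting identical rows once and a threshold of 0.1 leave a difference unchanged. Values from these alternatives could not turn sign. *Col14a1* was at 0.043 without injury replicate 1. *Col28a1* was at 0.021 without sham replicate 1 and at 0.20 without injury replicate 1. *P4ha3* was at -0.019 and *Plod2* at -0.051 without sham replicate 1, and *Plod2* was at -0.22 after quantile normalization. With 1 library removed, *Col14a1* ran from -1.20 to 0.043, *Col28a1* from -0.31 to 0.20, *P4ha3* from -0.019 to 0.87 and *Plod2* from -0.051 to 0.30. The cause of these changes was not tested. *Col5a1*, *Lox*, *Loxl1* and *Plod1*, members that the rule did not name, also turned sign with 1 library removed, within ranges given with their values. The depth behind the values is unknown, so the precision of a difference rests on the spread of 2 libraries a group.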

Other observations

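The injury libraries did not agree equally well for all members. In 7 of the 39 genes (17.9%) injury replicate 1 lay over 0.5 units below injury replicate 2, against 6.58% of all genes. They were *Col14a1*, *Col4a5*, *Col6a4*, *Col5a1*, *P4ha3*, *Col16a1* and *Col28a1*, named after their values were seen. The fibroblast marker list showed a gap of the same direction in 10 of its 12 genes, with a median of -0.76 (injury replicate 1 minus injury replicate 2), where 51.1% of all genes had that direction. So did smooth muscle and mural markers in 11 of 12 genes (median -0.54), Schwann cell markers in 6 of 7 (-0.52) and adipocyte markers in 8 of 9 (-0.41), and macrophage markers had the opposite direction in 8 of 8 (0.71). *Fbln1*, the gene of the matrix protein fibulin-1, was at -1.12 and 0.18 in the injury libraries and at 0.64 and 0.56 in the sham libraries. *Mfap5*, a microfibril protein gene, was at -1.08 and 0.014 in the injury libraries. By contrast the injury libraries differed by less than 0.05 for *Col1a1*, *Col6a3*, *Col4a2* and *Col20a1*.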
